A study of Rattus norvegicus with 12 samples.

Results

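Heat shock proteins of the cytosol and the mitochondria were followed across the livers of 12 rats, 1 Affymetrix array per animal. All probe sets that the platform annotation assigns to 1 of the 10 listed genes and to no other gene were taken: Hspb1, Hspa8, Hsp90aa1, Hsp90ab1, Hspd1, Hspe1, Hsph1, Dnaja1, Dnajb1 and Hspa4. This gave 12 probe sets of 8 genes, out of 31042 non-control probe sets and 14217 genes with a probe set of their own. A further 3 probe sets pair Hspa8 or Hsp90aa1 with another gene and were left out, so these 2 genes are not described. Hsp90ab1, Hsph1, Dnaja1 and Dnajb1 each have 2 probe sets, and all 12 probe sets were bright enough to be tested (mean signal over the arrays of at least 19.67, the median). In the Sprague Dawley strain, germ-free animals 1, 3 and 4 were set against conventional animals 6, 7 and 8. In the Han Wistar strain, antibiotic animals 13, 14 and 15 were set against untreated animals 1, 2 and 3. The antibiotics were streptomycin and penicillin, named at 4 mg/ml and 2 mg/ml without saying whether of the stock or the drinking water, and offered in the drinking water for 8 days. The labels give no age, sex, diet or hour of collection, and strain, experiment and manipulation change together between the 2 pairs of groups, so each manipulated group was set against the control of its own strain only.

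Heat shock proteins are molecular chaperones that bind unfolded or partly folded proteins and keep them from aggregating. HSP70 proteins work in cycles of ATP use that J-domain proteins start and nucleotide exchange factors, among them the HSP110 proteins, reset. HSP90 finishes the folding of selected clients such as steroid hormone receptors, small heat shock proteins hold unfolded proteins without using ATP, and HSP60 with HSP10 forms the folding chamber of the mitochondrial matrix. Many of these genes are switched on by heat shock factor 1, which binds as a trimer to heat shock elements, alternating inverted repeats of the letters GAA.

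The stretch before the start of transcription is shown for the 6 genes whose probe sets carry the results most, because several hold the letters of a heat shock element. The sequences are RefSeq's for build GRCr8 (all 8 genes matched), printed 5′ to 3′ on the gene's own strand and ending at the base before the annotated start. Capitals mark matches to GAANNTTC or TTCNNGAA (each is its own reverse complement, so both strands are covered) and to their 3-unit extensions GAANNTTCNNGAA and TTCNNGAANNTTC, which are reverse complements of each other and contain the 2-unit forms. The stretches lie at chr12:26432302-26432551, minus strand (Hspb1), chr12:10427118-10427367, plus strand (Hsph1), chr19:41431142-41431391, minus strand (Dnajb1), chr5:60638154-60638403, plus strand (Dnaja1), chr9:22930173-22930422, plus strand (Hsp90ab1) and chr9:64084077-64084326, plus strand (Hspe1).
Hspb1: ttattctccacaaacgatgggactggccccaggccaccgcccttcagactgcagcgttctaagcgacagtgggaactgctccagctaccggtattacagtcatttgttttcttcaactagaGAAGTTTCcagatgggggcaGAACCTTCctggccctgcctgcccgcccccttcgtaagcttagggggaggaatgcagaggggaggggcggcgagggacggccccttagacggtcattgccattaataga
Hsph1: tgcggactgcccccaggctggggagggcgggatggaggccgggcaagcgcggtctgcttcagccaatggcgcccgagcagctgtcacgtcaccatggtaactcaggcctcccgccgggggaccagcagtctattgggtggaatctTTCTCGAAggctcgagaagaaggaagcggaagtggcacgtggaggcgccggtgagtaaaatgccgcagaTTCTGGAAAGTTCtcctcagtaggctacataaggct
Dnajb1: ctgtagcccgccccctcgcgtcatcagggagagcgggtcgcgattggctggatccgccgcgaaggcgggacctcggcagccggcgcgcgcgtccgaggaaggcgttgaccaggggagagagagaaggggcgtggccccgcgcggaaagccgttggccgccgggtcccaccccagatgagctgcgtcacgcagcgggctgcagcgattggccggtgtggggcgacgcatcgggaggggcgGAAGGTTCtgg
Dnaja1: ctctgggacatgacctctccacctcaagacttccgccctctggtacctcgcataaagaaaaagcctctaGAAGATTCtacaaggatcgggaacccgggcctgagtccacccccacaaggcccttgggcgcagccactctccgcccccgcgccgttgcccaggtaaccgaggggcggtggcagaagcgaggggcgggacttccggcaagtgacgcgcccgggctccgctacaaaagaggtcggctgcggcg
Hsp90ab1: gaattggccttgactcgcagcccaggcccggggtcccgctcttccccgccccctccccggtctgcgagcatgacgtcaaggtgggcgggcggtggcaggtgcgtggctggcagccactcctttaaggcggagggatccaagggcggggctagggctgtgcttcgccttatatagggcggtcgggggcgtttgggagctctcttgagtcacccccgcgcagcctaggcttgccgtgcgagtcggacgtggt
Hspe1: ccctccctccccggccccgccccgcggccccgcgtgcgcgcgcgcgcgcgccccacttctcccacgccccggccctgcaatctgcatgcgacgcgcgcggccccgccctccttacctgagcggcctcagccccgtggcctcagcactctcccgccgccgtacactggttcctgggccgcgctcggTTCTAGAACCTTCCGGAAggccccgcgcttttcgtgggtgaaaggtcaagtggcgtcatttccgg

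Over windows from 250 bases before to 50 bases after the start, 6 of the 8 genes held a 2-unit form, against 15.9% of 33469 RefSeq promoters of the same length. A 3-unit form stood in 4 of the 8 windows (Hspd1, Hspe1, Hsph1 and Dnaja1), against 0.798% of all promoters. Hspd1 and Hspe1 lie head to head, their windows overlap by 211 bases, and the block of capitals printed for Hspe1 is the same block that the Hspd1 window holds on the opposite strand, so these 2 are not separate cases. It begins 65 bases before the Hspe1 start and 242 bases before the Hspd1 start. In Hspb1 the 2 matches begin 129 and 109 bases upstream, and in Hsph1 the 3-unit match begins 36 bases upstream. The 3-unit match of Dnaja1 lies past the printed stretch, from base 10 of the transcript. No such letters were found in the windows of Hsp90ab1 and Hspa4. A match describes letters in a window and does not show that a factor binds there.

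**Figure D1:**
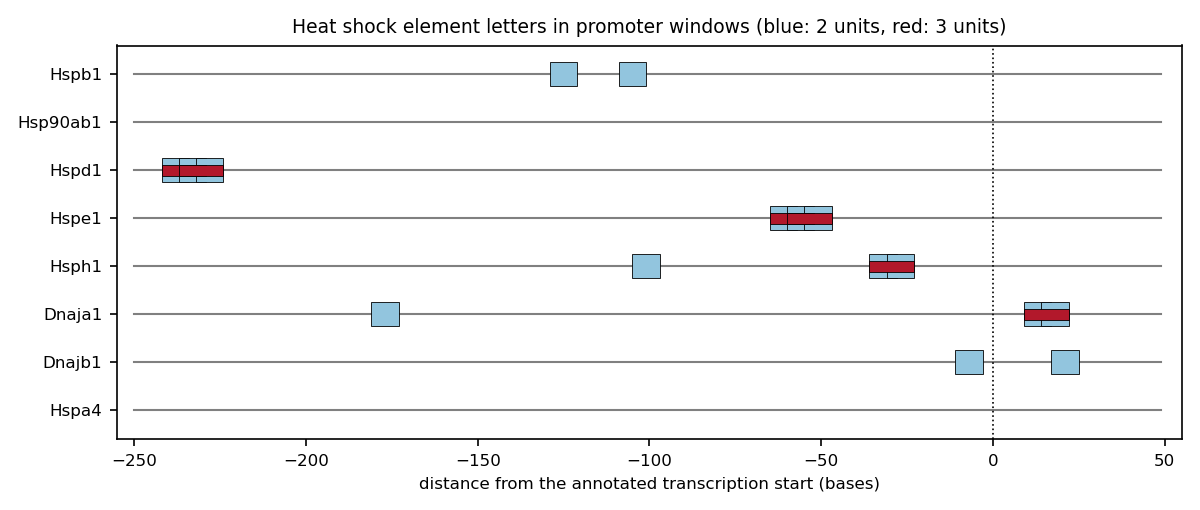
Positions of heat shock element letters in the promoter windows of the 8 genes, with distance from the annotated transcription start in bases on the x axis. Wide boxes are 2-unit matches and narrow boxes 3-unit matches, which 4 genes hold (Hspd1, Hspe1, Hsph1 and Dnaja1); the lines of Hsp90ab1 and Hspa4 are empty.

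Most heat shock protein probe sets were dimmer in germ-free livers than in conventional livers, and the antibiotic livers showed no change that passed the test. In germ-free livers 6 of the 12 probe sets, of 5 genes (Hspb1, Hsph1, Dnajb1, Dnaja1 and Hspe1), fell and none rose. Of all 15523 probe sets tested in that comparison, 12.2% passed, 5.39% as lower and 6.86% as higher. All 12 log2 changes were negative, with a median of -0.33 against 0.05 over all probe sets tested, and 11 of the 12 had every germ-free animal below every conventional animal (12.1% of all probe sets did). In antibiotic livers 0 of the 12 passed (0.0193% of all probe sets did) under limma with Benjamini-Hochberg adjustment, 7 of the 12 had an unadjusted p under 0.05 (9.97% of all), and 11 of the 12 log2 changes were positive. The signals are linear MAS5 intensities, 16 was added to each before the logarithm was taken, and a call is an adjusted p under 0.05. In whole liver RNA, fewer cells of a type and less RNA per cell cannot be told apart.

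**Figure D2:**
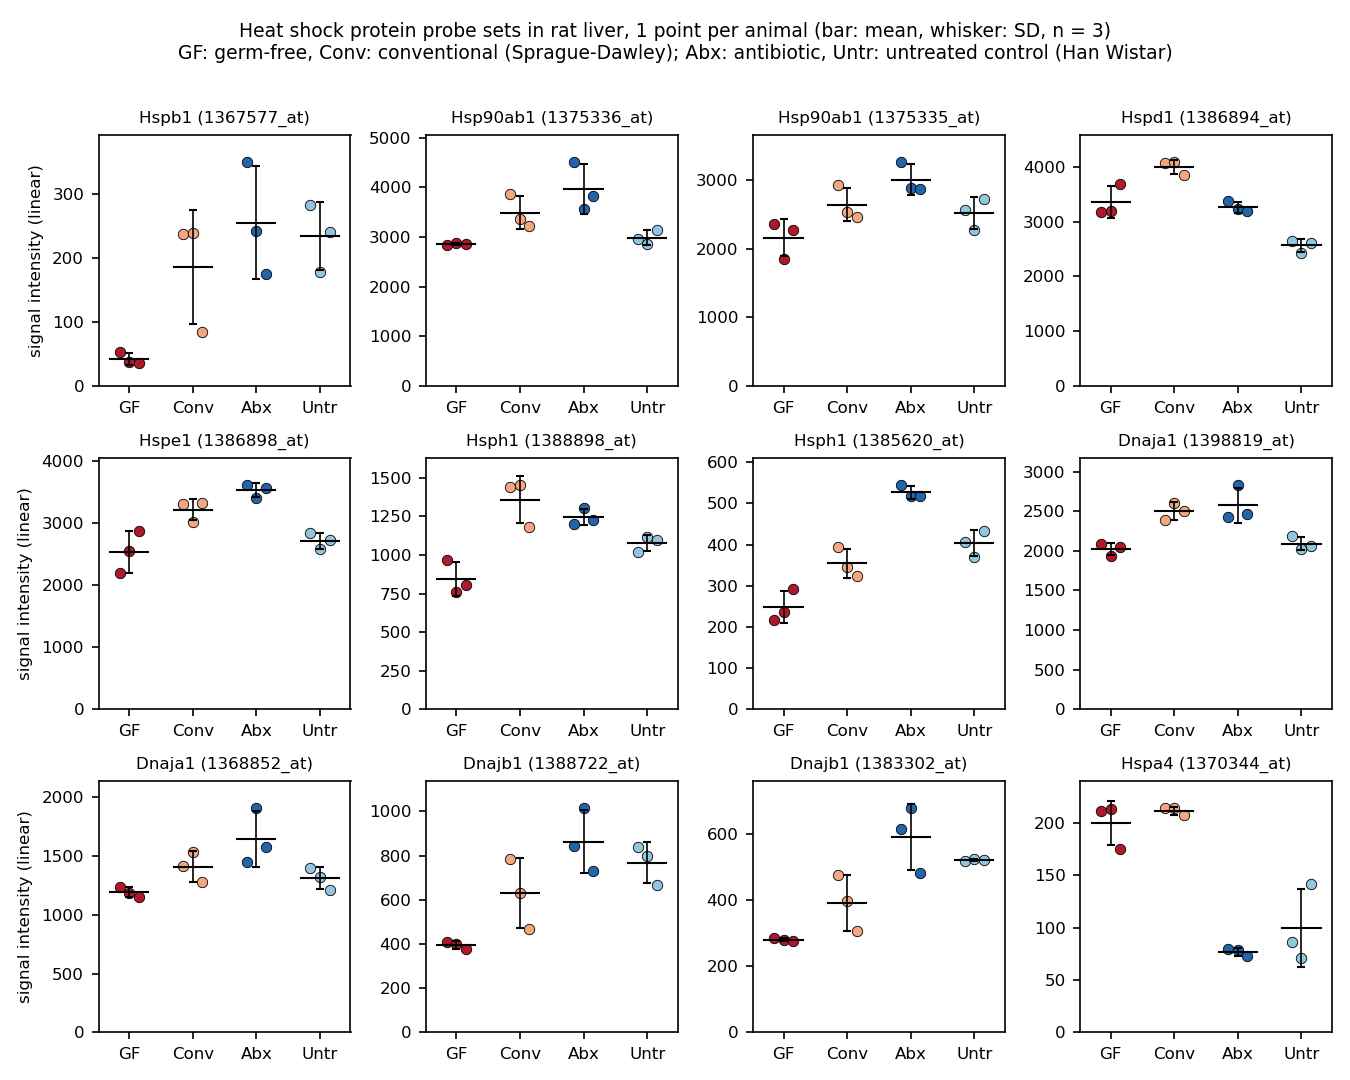
Signal intensity (linear scale, axis from 0) of the 12 heat shock protein probe sets, 1 point per animal, with the mean as a bar and the SD as whiskers (n = 3 per group). Germ-free points lie below all conventional points in 11 of the 12 panels, Hspa4 being the exception, and antibiotic points lie above all untreated points in 8.

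Hspb1 encodes the small heat shock protein HSP27 (probe set 1367577_at), an ATP-independent holdase that also binds actin filaments, and it showed the largest change of the 12 probe sets. Its signal was 53.3, 37.8 and 36.5 in germ-free animals 1, 3 and 4, against 237.1, 238.6 and 83.9 in conventional animals 6, 7 and 8. The groups did not overlap, but conventional animal 8 lay far below the other conventional animals. Hspb1 averaged 42.5 ± 9.35 in germ-free and 187 ± 88.9 in conventional animals (SD, n = 3 each), and it fell by 1.68 ± 0.32 on the log2 scale (SE; limma adjusted p = 0.00396). The size depends on the constant added before the logarithm, because the germ-free signals are low: the log2 change was -1.98 with a constant of 1 and -1.16 with 64, and it passed in all 24 alternatives. In Han Wistar rats the signal was 350.6, 241.7 and 174.7 in antibiotic animals 13, 14 and 15, against 283.6, 177.7 and 241.4 in untreated animals 1, 2 and 3. These groups overlapped fully, and the log2 change of 0.09 ± 0.32 (limma adjusted p = 0.964) turned negative without untreated animal 2 (-0.083) or antibiotic animal 13 (-0.15).

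Hsph1 encodes HSP110 (HSP105), a relative of HSP70 that acts as its nucleotide exchange factor and helps to dissolve aggregates. The brighter probe set (1388898_at) read 970.1, 762.3 and 803.8 in germ-free livers, against 1441, 1453.6 and 1183.6 in conventional livers. The dimmer one (1385620_at) read 217.8, 236 and 293.1 in germ-free livers, against 393.6, 346.1 and 323 in conventional livers. Neither pair of groups overlapped, and both probe sets fell, the brighter by 0.68 ± 0.11 on the log2 scale (limma adjusted p = 0.00166) and the dimmer by 0.49 ± 0.12 (limma adjusted p = 0.0176). The call of the brighter probe set held in all 24 alternatives. That of the dimmer was lost without germ-free animal 1 (limma adjusted p = 0.0531), germ-free animal 3 (0.0717) or conventional animal 6 (0.0563), and when only the 6 Sprague Dawley arrays were fitted (0.0678). With antibiotics the dimmer probe set read 544.7, 518 and 517.7, against 405.8, 370.2 and 433.7 in untreated livers. The brighter read 1203.8, 1304.9 and 1229.9 in antibiotic livers, against 1017.3, 1114.6 and 1099.8 in untreated livers. All antibiotic animals lay above all untreated animals on both probe sets, but the log2 changes of 0.38 ± 0.12 (dimmer, limma adjusted p = 0.294) and 0.21 ± 0.11 (brighter, limma adjusted p = 0.575) did not pass.

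Hspa4 encodes APG-2, the constitutive HSP110 of the cytosol, and stood apart from Hsph1 in its readings. Its probe set (1370344_at) read 211.4, 213.2 and 175.4 in germ-free livers, against 213.9, 214.1 and 207.4 in conventional livers, which overlapped only in that germ-free animals 1 and 3 exceeded conventional animal 8. The log2 change was -0.08 ± 0.17 (limma adjusted p = 0.803), with a 95% interval of -0.45 to 0.29, and its sign turned without germ-free animal 4 (0.0033). In antibiotic livers it read 79.4, 78.3 and 72.5, against 86.3, 71.1 and 141.4 in untreated livers, where untreated animal 3 lay above all others. That difference did not pass either (log2 change -0.27 ± 0.17, limma adjusted p = 0.65).

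Dnajb1 encodes HSP40, the heat-inducible J-domain partner of cytosolic HSP70. Its brighter probe set (1388722_at) read 407.3, 400.6 and 375.7 in germ-free livers, against 786.4, 630.8 and 469 in conventional livers. The germ-free animals were close together and below a conventional group that spread widely, with conventional animal 8 lowest, as for Hspb1. This probe set fell by 0.62 ± 0.17 on the log2 scale (limma adjusted p = 0.0262), and the call was lost when germ-free animal 3 (0.0739), germ-free animal 4 (0.08), conventional animal 6 (0.0884) or conventional animal 7 (0.0729) was left out. The call was also lost when only the 6 Sprague Dawley arrays were fitted (limma adjusted p = 0.0521). With the actin ratio, a measure of RNA integrity, as a covariate it was lost too (limma adjusted p = 0.0528). The dimmer probe set (1383302_at) read 285, 279.9 and 276.5 in germ-free livers, against 474.1, 397.3 and 304.9 in conventional livers. Its change of -0.44 ± 0.15 did not pass (limma adjusted p = 0.0678) but did without conventional animal 8 (0.0151). In antibiotic livers the brighter probe set read 844.7, 1014 and 729.5, against 839.8, 799.1 and 664.9 in untreated livers, with overlapping groups (log2 change 0.16 ± 0.17, limma adjusted p = 0.814).

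Dnaja1 encodes HDJ2, a farnesylated J-domain protein that serves HSP70 in protein import and folding. The brighter probe set (1398819_at) read 2088.3, 1935.1 and 2043.5 in germ-free livers, against 2388.4, 2607.4 and 2506.5 in conventional livers. Both groups were tight and did not overlap, and the signal fell by 0.30 ± 0.09 on the log2 scale (limma adjusted p = 0.0378). The call was close to the threshold: it was lost without germ-free animal 3 (limma adjusted p = 0.137), germ-free animal 4 (0.0783), conventional animal 7 (0.121), conventional animal 8 (0.0761), untreated animal 1 (0.0524), untreated animal 2 (0.0532) or antibiotic animal 15 (0.0511). With all animals it was lost with the actin ratio as a covariate (limma adjusted p = 0.226) and with quantile normalization (0.0714). It was also lost with only the 6 Sprague Dawley arrays (limma adjusted p = 0.086), without the filter (0.0817) and without the intensity trend (0.0766). The dimmer probe set (1368852_at) ranged from 1155 to 1240 in germ-free livers and from 1280 to 1537 in conventional livers, and its change of -0.24 ± 0.11 did not pass (limma adjusted p = 0.189). With antibiotics the brighter probe set read 2427.8, 2830.6 and 2467.9, against 2184.7, 2027.2 and 2056.1 in untreated livers. The antibiotic animals lay above all untreated ones, with animal 14 highest, and the change of 0.30 ± 0.09 did not pass (limma adjusted p = 0.266).

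Hsp90ab1 encodes HSP90 beta, the constitutive cytosolic HSP90. Its brighter probe set (1375336_at) read 2837, 2883.9 and 2855.8 in germ-free livers, against 3870.8, 3372.9 and 3226.8 in conventional livers. The 3 germ-free readings were nearly the same and lay below all conventional ones, but the change of -0.28 ± 0.10 did not pass (limma adjusted p = 0.0857). In antibiotic livers it read 4515.9, 3555.4 and 3832.8, against 2956.5, 2852.4 and 3146.1 in untreated livers. These groups did not overlap either, in the opposite direction, and the log2 change of 0.40 ± 0.10 (95% interval 0.19 to 0.62) had a limma adjusted p of 0.181. The dimmer probe set (1375335_at) had the same signs, -0.29 ± 0.11 in germ-free (limma adjusted p = 0.112) and 0.25 ± 0.11 in antibiotic livers (limma adjusted p = 0.486). Hsp90ab1, Hspd1 and Hspe1 have near-identical pseudogene copies in mammalian genomes, whose transcripts these probe sets may not separate.

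Hspe1 and Hspd1 encode HSP10 and HSP60, the lid and the chamber of the mitochondrial chaperonin, and share the region between their starts. Hspe1 (1386898_at) read 2193.6, 2545.2 and 2868.9 in germ-free livers, against 3304.6, 3019.5 and 3316.2 in conventional livers. Hspd1 (1386894_at) read 3174, 3199.1 and 3687.2 in germ-free livers, against 4062, 4092.3 and 3848.7 in conventional livers. For both genes germ-free animal 4 was the highest of its group and still below every conventional animal. Hspe1 fell by 0.35 ± 0.10 on the log2 scale (limma adjusted p = 0.0363). Its call was lost without germ-free animal 1 (0.105), germ-free animal 3 (0.0941), conventional animal 6 (0.0851), conventional animal 7 (0.0523), conventional animal 8 (0.0909) or antibiotic animal 15 (0.0506). It was also lost with only the 6 Sprague Dawley arrays (limma adjusted p = 0.1002) and without the filter (0.0847). The same held without the intensity trend (limma adjusted p = 0.0696) and with array weights (0.0633). Hspd1 changed by -0.26 ± 0.09 without passing (limma adjusted p = 0.0654), and passed without germ-free animal 4 (0.0374).

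In Han Wistar livers both chaperonin genes were brighter in every antibiotic animal than in any untreated animal. Hspe1 read 3608.5, 3393.3 and 3558.7 in antibiotic livers, against 2835.1, 2576.4 and 2723.9 in untreated livers. Hspd1 read 3370.1, 3222.2 and 3185.3 in antibiotic livers, against 2651.3, 2434.5 and 2611.5 in untreated livers. The spread within each group was small, but neither log2 change passed, at 0.38 ± 0.10 for Hspe1 (limma adjusted p = 0.206) and 0.34 ± 0.09 for Hspd1 (limma adjusted p = 0.175).

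**Figure D3:**
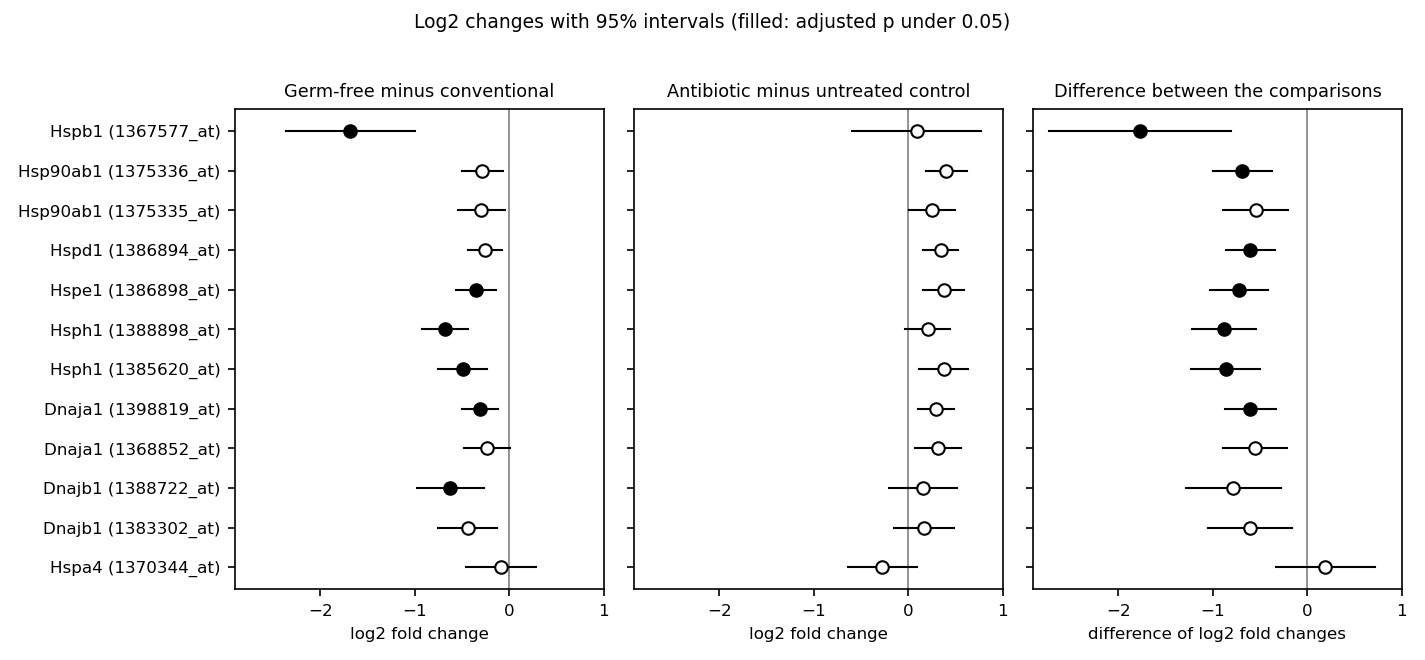
Log2 changes of the 12 probe sets with 95% intervals (x axis: log2 fold change, or the difference of log2 fold changes in the right panel); filled points have a limma adjusted p under 0.05. The left panel has 6 filled points, the middle panel 0 and the right panel 7, all filled points being below 0.

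Some animals held the same place within their group on many of the probe sets. Conventional animal 8 was the lowest conventional animal on 10 of the 12 probe sets, and untreated animal 2 the lowest untreated animal on 8. Antibiotic animal 13 was the highest of its group on 7 probe sets and the lowest on 3, and antibiotic animal 15 the lowest on 7 and the highest on 0. Germ-free animal 1 was the highest germ-free animal on 7 but the lowest on 4. The same counts were not taken over all probe sets. The 12 readings of an animal are thus not separate pieces of evidence. The widest spread within a group was that of Hspb1 in conventional livers, with an SD of 0.78 on the log2 scale, and among the narrowest were those of Hsp90ab1 in germ-free livers (brighter probe set, SD 0.012) and of the dimmer Dnajb1 probe set in untreated livers (SD 0.0094).

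The antibiotic readings must be set beside the brightness of the probe sets. Among the 407 probe sets with a mean signal of 2000 to 5000, which hold 5 of the 12 heat shock probe sets (Hsp90ab1, Hspd1, Hspe1 and the brighter Dnaja1), the median log2 change with antibiotics was 0.19, and 37.6% had all antibiotic animals above all untreated animals. Over all probe sets tested that share was 9.57%, and 8 of the 12 heat shock probe sets showed it. Above a signal of 5000 the median log2 change was 0.37, and the highest signal on an array was 8370 to 10666 in antibiotic livers, against 6640 to 7903 in untreated livers. After quantile normalization, which makes the distribution of signals the same on every array, the median change among probe sets of 2000 to 5000 was 0.003. The log2 changes of the bright probe sets with antibiotics were then 0.20 and 0.09 for Hsp90ab1, 0.18 for Hspd1, 0.19 for Hspe1 and 0.17 for Dnaja1, and 5 of the 12 had antibiotic animals above all untreated ones. The dimmer Hsph1 probe set, in the range of 100 to 500 where the median change of all probe sets was -0.02, kept 0.40.

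The germ-free readings moved little with that step. Among the probe sets of 2000 to 5000 the median log2 change in germ-free livers was 0.03, and 16% had all germ-free animals below all conventional ones. That share was 15.1% at 100 to 500, 23.8% at 500 to 1000 and 24.3% at 1000 to 2000. These ranges hold 4, 1 and 2 of the heat shock probe sets. The shares called lower there were 6.56%, 13.2% and 14.7%, and 8.6% at 2000 to 5000. After quantile normalization Hspb1 changed by -1.75 (limma adjusted p = 0.00303), Hsph1 by -0.61 (0.0052) and -0.47 (0.0277), Hspe1 by -0.33 (0.0221), Dnajb1 by -0.58 (0.0419) and Hspd1 by -0.26 (0.0353). Of the 12 probe sets, 10 had germ-free animals below all conventional ones in these values. The groups then overlapped for the dimmer Hsp90ab1 and Dnaja1 probe sets. Those of Hspa4, which overlapped in the deposited values, no longer did (log2 change -0.11, limma adjusted p = 0.742). The brighter Dnaja1 probe set then missed the threshold (-0.28, limma adjusted p = 0.0714).

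**Figure D4:**
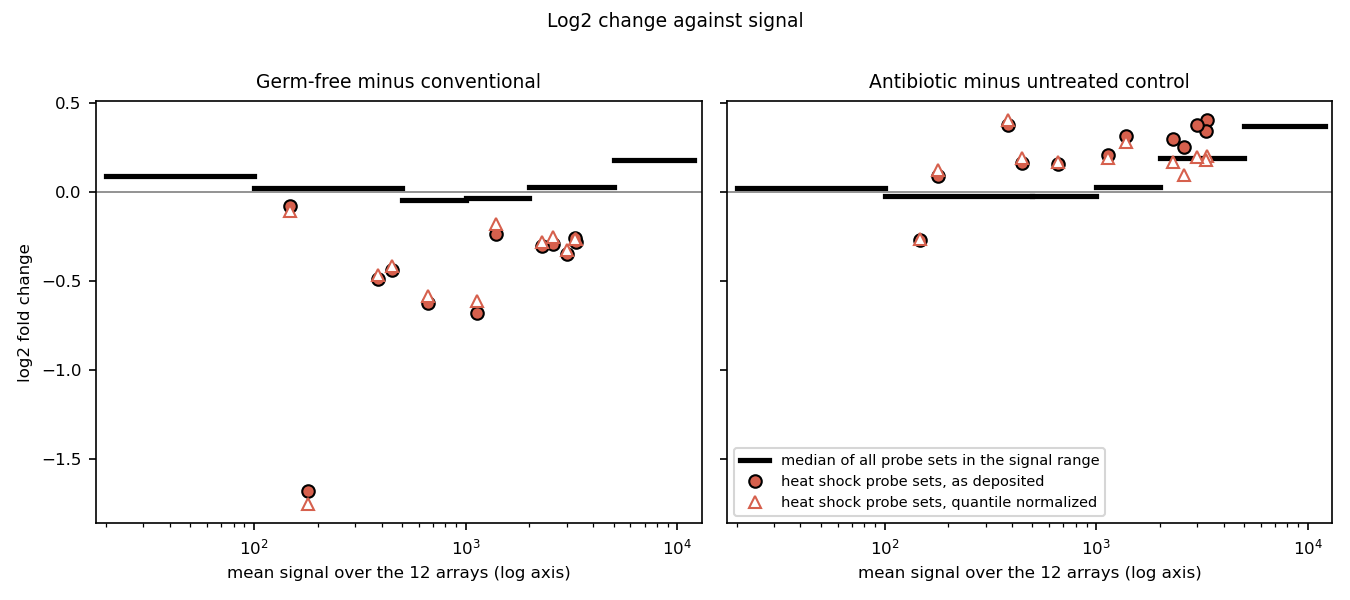
Log2 change (y axis) against mean signal over the 12 arrays (x axis, log scale) for the 12 heat shock probe sets as deposited (circles) and after quantile normalization (triangles); horizontal bars are the medians of all tested probe sets by range of signal. With antibiotics the bars rise to 0.19 and 0.37 at the bright end and the bright heat shock probe sets move down after normalization, while in germ-free livers circles and triangles nearly coincide.

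The difference between the comparisons (germ-free minus conventional, less antibiotic minus untreated) was tested in the same fit, and it also differs by strain and experiment. It was negative and passed for 7 of the 12 probe sets, of 6 genes, against 5.03% of all probe sets called in either direction and 2.56% as negative. Among probe sets with a signal of 2000 to 5000, 11.1% were called in either direction and 9.83% as negative. The median difference in that range was -0.15, against 0.04 over all probe sets tested. Hspb1 had the largest difference, -1.77 ± 0.45 (limma adjusted p = 0.0393). The differences of Hsph1 were -0.88 ± 0.16 (brighter probe set, limma adjusted p = 0.00595) and -0.86 ± 0.17 (dimmer, limma adjusted p = 0.011). The mitochondrial pair differed by -0.72 ± 0.14 for Hspe1 (limma adjusted p = 0.0103) and -0.60 ± 0.12 for Hspd1 (limma adjusted p = 0.0121). Hsp90ab1 (brighter probe set, called in all alternatives) differed by -0.68 ± 0.14 (limma adjusted p = 0.0152) and Dnaja1 (brighter) by -0.60 ± 0.12 (limma adjusted p = 0.0145). Dnaja1 did not pass after quantile normalization (-0.45, limma adjusted p = 0.0702) or with the actin ratio as a covariate (0.079), and Hspd1 did not pass with that covariate (0.0506). For the brighter Dnajb1 probe set (-0.78 ± 0.24, limma adjusted p = 0.075) the difference passed only without conventional animal 8 (0.018), with median centring (0.0403) or with array weights (0.0435), and for Hspa4 (0.19 ± 0.24, limma adjusted p = 0.717) it did not pass.

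Signals below those of all own-strain controls in germ-free animals together with signals above them in antibiotic animals were seen for 8 of the 12 probe sets (66.7%): both of Hsp90ab1, both of Hsph1, both of Dnaja1, Hspd1 and Hspe1. Over all probe sets tested 1.26% showed this, and 6.88% of those with a signal of 2000 to 5000. After quantile normalization it was 5 of the 12, namely the brighter Hsp90ab1 probe set, Hspd1, Hspe1 and both of Hsph1, against 1.34% of all. The difference of Hspb1 lost its call when germ-free animal 3 (limma adjusted p = 0.089), germ-free animal 4 (0.0797), conventional animal 6 (0.0805), conventional animal 7 (0.0864), untreated animal 2 (0.0974), untreated animal 3 (0.0673), antibiotic animal 13 (0.0872) or antibiotic animal 14 (0.0717) was left out. With all animals it lost its call with the actin ratio as a covariate (limma adjusted p = 0.119) or with a constant of 64 (0.0591). The same held without the filter (limma adjusted p = 0.0774), with a robust prior (0.0771) and without the intensity trend (0.0504). With array weights or without 1 animal some others gained a call: the dimmer Dnaja1 probe set without conventional animal 8 (0.0482) or antibiotic animal 13 (0.0472), the dimmer Hsp90ab1 probe set without germ-free animal 1 (0.0495) and the dimmer Dnajb1 probe set without conventional animal 8 (0.0324).

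Other genes of the chaperone network were taken from 9 lists by role, with 1 probe set per gene, the brightest. The lists also hold heat shock factors, mitochondrial proteases and cold-inducible RNA-binding proteins, which are not chaperones. The counts of these lists stand beside 5.39% of all tested probe sets called lower in germ-free livers. By mean signal that share was 2.82% at 20 to 100, 6.56% at 100 to 500, 13.2% at 500 to 1000 and 14.7% at 1000 to 2000. Most lists mix genes from several of these ranges. Lists with a share near these are not set apart by their count. In germ-free livers the HSP70 list, which holds the other HSP70 proteins and their nucleotide exchange factors, had 2 of 12 tested genes called lower, Hspa1a and Hspa4l, and none called higher (median log2 change -0.04). Hspa1a, an inducible HSP70, read 34.2, 34 and 42.8 in germ-free livers, against 294, 240.1 and 96 in conventional livers. The pattern over animals was that of Hspb1, with conventional animal 8 low, and the signal fell by 1.97 ± 0.45 on the log2 scale (limma adjusted p = 0.0115; 0.0516 with a robust prior). In antibiotic livers Hspa1a read 336.3, 989.6 and 217, against 422.2, 249.3 and 221.5 in untreated livers, with antibiotic animal 14 far above the rest (log2 change 0.53 ± 0.45, limma adjusted p = 0.757). Hspa1a has a near-identical neighbour, Hspa1b, from which its probe set may not be separate. Hspa4l, another HSP110 gene, read 8.7, 14.9 and 11.1 in germ-free livers, against 39.8, 27.3 and 28.4 in conventional livers, with a log2 change of -0.79 ± 0.17 (limma adjusted p = 0.00892; -1.40 to -0.34 over the alternatives). Its mean over the 12 arrays, 20.4, passed the signal filter of 19.67 only through the conventional group, so its call and its place in the count are a description of these readings and support nothing.

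Of the other J-domain proteins 2 of 15 fell, Dnaja2 (-0.30, limma adjusted p = 0.0285) and Dnaja4 (-0.45, limma adjusted p = 0.0458), both relatives of Dnaja1. Dnaja2 lost its call without germ-free animal 3 (0.0652), germ-free animal 4 (0.0822), conventional animal 6 (0.0556), conventional animal 7 (0.0633) or conventional animal 8 (0.0589). Dnaja4 lost its call when any of the germ-free or antibiotic animals, conventional 6, conventional 7 or untreated 2 was left out, with limma adjusted p from 0.053 to 0.167. Of the HSP90 co-chaperones 4 of 14 fell (median -0.21). Fkbp5, an immunophilin that HSP90 joins to steroid receptors and a well known glucocorticoid target, averaged 87.2 ± 16.2 in germ-free and 204 ± 62.4 in conventional animals (SD, n = 3 each) and fell by 1.06 ± 0.19 (limma adjusted p = 0.00309). Ahsa1, the activator of the HSP90 ATPase, fell by 0.64 ± 0.13 (limma adjusted p = 0.00707). Stip1 (HOP, the link between HSP70 and HSP90; -0.46, limma adjusted p = 0.038) and Fkbp4 (-0.42, limma adjusted p = 0.037) lost their calls when any of germ-free 1 and 3, conventional 6 and 7 and untreated 1 was left out, Stip1 also without germ-free 4, with limma adjusted p from 0.051 to 0.118.

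Of the other mitochondrial chaperones and proteases 4 of 13 fell (median -0.36). Clpx, the unfoldase of the matrix protease ClpXP, averaged 880 ± 117 in germ-free and 1849 ± 218 in conventional animals (SD, n = 3 each) and fell by 1.06 ± 0.13 (limma adjusted p = 0.000222), a call kept in all 24 alternatives. Hspa9, the matrix HSP70 that hands proteins to the HSP60 chamber, fell by 0.52 ± 0.14 (limma adjusted p = 0.0258), and its call was lost without germ-free animal 3 (0.121), conventional animal 6 (0.0627) or conventional animal 8 (0.0923). Its exchange factor Grpel1 (-0.37, limma adjusted p = 0.0244) lost its call without germ-free animal 3 (0.11), germ-free animal 4 (0.073), conventional animal 7 (0.0592) or conventional animal 8 (0.0637). The import receptor Tomm70 (-0.50, limma adjusted p = 0.03) lost its call when any of the germ-free animals, conventional 6 or conventional 7 was left out, with limma adjusted p from 0.0606 to 0.101.

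The TRiC chaperonin, which folds actin and tubulin in the cytosol, and prefoldin, which delivers them, had the highest count, with 6 of 13 genes falling and none rising (median -0.28). Cct6a averaged 600 ± 35.8 in germ-free and 872 ± 80.3 in conventional animals (SD, n = 3 each) and fell by 0.53 ± 0.10 (limma adjusted p = 0.00318) in the deposited values and in all 24 alternatives. Pfdn6 (-0.77, limma adjusted p = 0.00481), Cct4 (-0.43, limma adjusted p = 0.00788) and Cct2 (-0.41, limma adjusted p = 0.01) were among the others. Cct2 lost its call without germ-free animal 3 (0.0517). Of the other small heat shock proteins 1 of 3 fell (median 0.01). This was Hspb8 (-0.58, limma adjusted p = 0.0273), which did not pass when leaving out germ-free animal 4 (0.111), conventional animal 6 (0.0895) or conventional animal 7 (0.0942). The dim Cryab went the other way without passing (0.43 ± 0.14, limma adjusted p = 0.0569). It read 30.5, 35.3 and 31.2 in germ-free livers, against 17.8, 24.7 and 17.5 in conventional livers. Hspb6 changed by 0.01 ± 0.14 (limma adjusted p = 0.96).

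Neither the heat shock factors nor the chaperones of the endoplasmic reticulum passed. Among the 4 tested heat shock factors and regulators Hsf1 changed by 0.14 ± 0.18 (limma adjusted p = 0.652). Hsf4 changed by 0.56 ± 0.19 (limma adjusted p = 0.0625), and passed without untreated animal 1 (0.0392). Hsf4 was dim, with a mean of 22.02 over all arrays, and its conventional (16.23) and antibiotic (16.37) means lay below the signal filter. Its log2 change ran from 0.2535 to 0.925 over the alternatives, so the Hsf4 values describe these readings and support nothing. Among the 14 chaperones of the endoplasmic reticulum the median log2 change was -0.06, and the largest, that of the J-domain protein Dnajb9, was 0.51 ± 0.19 (limma adjusted p = 0.0974; 0.0148 without germ-free animal 1). The cold-inducible RNA-binding proteins, 2 tested, did not pass either. In antibiotic livers 0 of the 90 tested genes of the 9 lists passed under limma, and 16 had an unadjusted p under 0.05, against 9.97% of all probe sets. Of the 5 nearest the threshold 3 were higher and 2 lower. They were the HSP90 co-chaperone Ptges3 (0.42 ± 0.10, limma adjusted p = 0.168), the HSP70 relative Hspa13 (-0.53 ± 0.19, limma adjusted p = 0.36), Fkbp4 (0.33 ± 0.12, limma adjusted p = 0.373), the mitochondrial exchange factor Grpel2 (-0.40 ± 0.15, limma adjusted p = 0.376) and Cct4 (0.25 ± 0.09, limma adjusted p = 0.384). Ptges3 averaged 3050 ± 197 in antibiotic and 2282 ± 183 in untreated livers (SD, n = 3 each), a signal in the range where the median probe set was brighter with antibiotics.

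**Figure D5:**
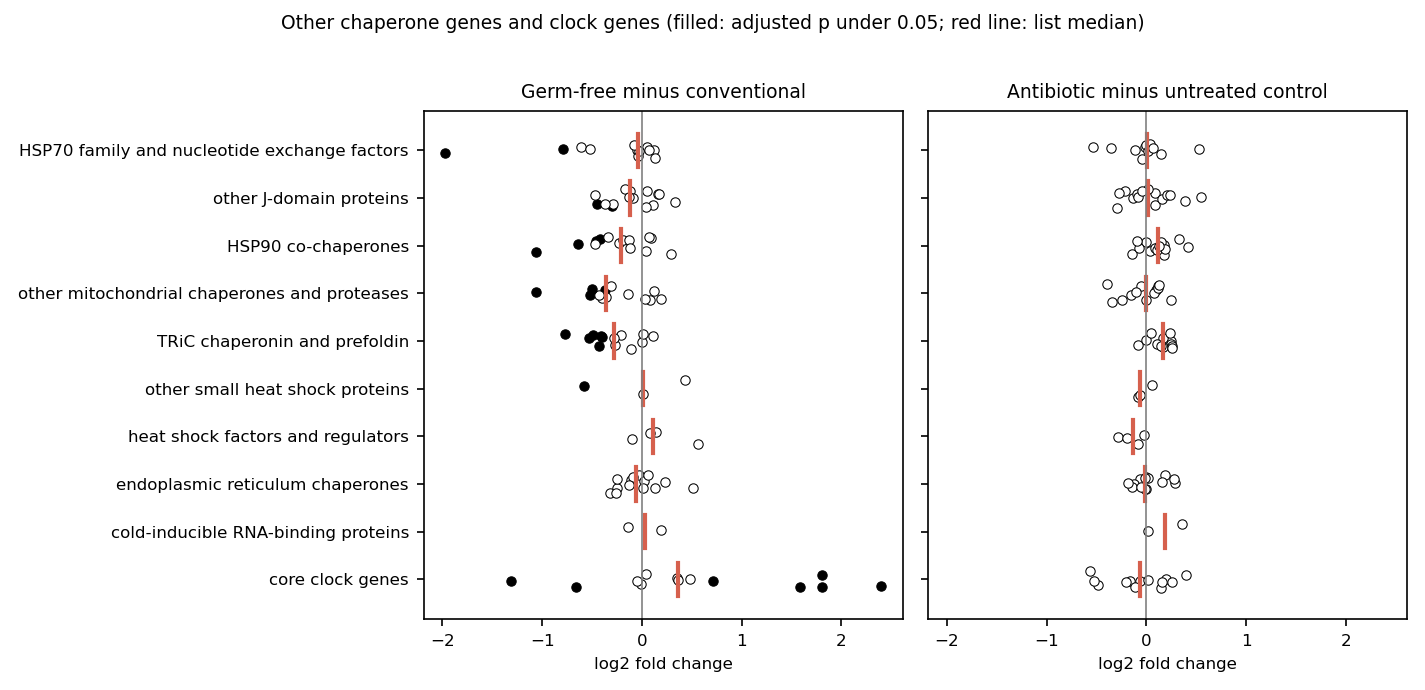
Log2 changes (x axis) of the tested genes of the 9 lists by role and of the core clock genes, 1 point per gene, filled where the limma adjusted p is under 0.05, with the median of each list as a red line. In germ-free livers all filled points of the 9 lists lie below 0, while 5 of the 7 filled clock genes lie above 0. The antibiotic panel has no filled point.

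Over the 12 arrays the 3 probe sets most like the brighter Hsph1 probe set in Pearson correlation, among 12490 named candidates, were those of Crat (carnitine acetyltransferase, 0.938), Cct6a (0.937) and Vnn1 (a pantetheinase, 0.928). Crat read 142.8, 71.4 and 72.4 in germ-free livers, against 371, 365.9 and 364 in conventional livers. It read 221.9, 237 and 249.9 in antibiotic livers, against 208.7, 233.6 and 179.3 in untreated livers. The likeness thus rests mainly on the step between germ-free and conventional animals, which all points of a group share. Of the probe sets of the other heat shock genes the brighter Dnaja1 probe set came nearest (0.798), then Hspb1 (0.763), while Hspd1 (0.307) and Hspa4 (-0.18) were far from it. Levels that differ between the strains and experiments enter this correlation. Hspd1 averaged 3353 in germ-free and 2566 in untreated livers, and the brighter Hsph1 probe set 845.4 and 1077. Within each strain both lay below all controls in germ-free animals and above them in antibiotic animals.

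Other measures moved with the germ-free group beside the heat shock genes. Of 13 tested core clock genes 5 rose and 2 fell in germ-free livers, among them Nr1d1 (REV-ERB alpha, 2.40 ± 0.35, limma adjusted p = 0.000681), Dbp (1.81 ± 0.23, limma adjusted p = 0.000298) and Cry1 (-1.31 ± 0.18, limma adjusted p = 0.00039). Of 7 markers of the sinusoidal endothelium 6 rose, with a summed signal of 1639.5 to 2316.6 in germ-free and 819 to 1062.9 in conventional livers. The hepatocyte markers bore out the labelled tissue: all 7 on the array were bright and tested, and none passed in either comparison. They summed to 53853.9 to 59889.3 in germ-free, 50612.6 to 55459 in conventional, 41751.5 to 52104.6 in antibiotic and 31464.6 to 38614.5 in untreated livers. The sums of antibiotic and untreated livers did not overlap, and each of the 7 markers had a higher mean with antibiotics. Their group means lay between 3682.2 and 10284.1. Of all probe sets with a signal above 5000, 76.9% had every antibiotic animal above every untreated one. The median log2 change in that range was 0.37, and 0.01 after quantile normalization. The marker sums are thus not set apart from other bright probe sets. All 4 lymphocyte markers lay below the signal filter. Actin 3′ to 5′ ratios, a measure of RNA integrity, were 3.62 to 5.14 in germ-free and 4.5 to 6.17 in conventional livers, and 2.61 to 2.87 in antibiotic and 2.47 to 2.69 in untreated livers. With this ratio as a covariate 4 of the 12 heat shock probe sets were called in germ-free livers, and 1 gene each of the HSP90 co-chaperone, mitochondrial and TRiC lists, 2 of the HSP70 list and 0 of the other J-domain and small heat shock protein lists. The brighter Dnaja1 and Dnajb1 probe sets lost their calls in that fit. The log2 change of Dnaja1 was then -0.25 instead of -0.30, and that of Dnajb1 -0.74 instead of -0.62. Calls were also lost, among the listed genes named above, for Dnaja2, Dnaja4, Stip1, Fkbp4, Ahsa1, Hspa9, Grpel1, Tomm70, Hspb8, Pfdn6, Cct4 and Cct2. Of these, Dnaja2, Stip1, Fkbp4, Tomm70 and Hspb8 had larger falls in that fit than without the covariate, and the rest smaller ones. The part of collection time, endothelial content or brightness in the heat shock values was not tested.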

How the data were processed

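RNA from 12 rat livers was hybridised to Affymetrix arrays. The deposited table holds linear signal intensity values per probe set and array, made with MAS5 per the submitters' processing notes; its version and detection calls are not given in the sources used here. Trimmed means of the arrays lay between 100.0 and 100.1, so no further scaling was applied. Symbols came from the platform annotation, updated through the RefSeq gene table. The 15523 of 31042 probe sets whose mean signal reached the median (19.67) were kept. Values were fitted as log2(signal + 16) with limma 3.58.1 in R 4.3.3 (lmFit, eBayes with an intensity trend), with 1 mean for each of the 4 groups over all 12 arrays, 8 residual and 5.96 prior degrees of freedom. Two-sided p-values were adjusted over all 15523 probe sets (Benjamini-Hochberg), and the threshold was 0.05. The fit was tested on simulated data. Precision is limited by the number of arrays: log2 changes had a median standard error of 0.152. Arrays of a group correlated at 0.98 to 0.988, and no 2 arrays were identical. The labels name separate animals, 3 per group.

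For each companion list the rule for named genes took those with the smallest p, up to 4 in germ-free and 2 in antibiotic livers; most that did not pass are given only in the counts. Hspa1a in antibiotic livers, and Cct3, Cct8 and Tef, were named after their values were seen. The heat shock genes and the lists were chosen with earlier results of these data known. Companion genes were represented by their brightest probe set. Promoter windows came from RefSeq (GRCr8). Alternatives were another constant, filter, normalization, centring, prior, set of arrays, array weights, the actin ratio as a covariate, 1 probe set per gene and leaving out each animal.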

Additional observations from a re-analysis of the deposited data

Results flagged for a closer look

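The log2 change in germ-free livers differed from that in antibiotic livers by a test of the difference itself (limma adjusted p under the threshold) for 7 heat shock probe sets and 18 other genes of the lists. Among the heat shock probe sets the differences were -1.77 for Hspb1, -0.88 and -0.86 for Hsph1, -0.72 for Hspe1, -0.68 for Hsp90ab1, -0.60 for Hspd1 and -0.60 for Dnaja1. Of all probe sets tested 5.03% passed the test of the difference, and 11.1% of those with a signal of 2000 to 5000. The pairs of groups also differ in strain and experiment, which cannot be told apart from the manipulation.

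Among the other chaperone genes the differences were -2.50 for Hspa1a, -1.09 for Fkbp5, -1.005 for Clpx, -0.82 for Ahsa1, -0.82 for Pfdn6, -0.77 for Hspa9, -0.76 for Cct6a, -0.75 for Cct8, -0.74 for Fkbp4, -0.68 for Cct4, -0.58 for Cct2, -0.57 for Cct3 and -0.52 for Tcp1. Those of Cct4 and Cct6a passed in every alternative run, and those of Clpx and Cct8 in all but the fit with the actin ratio (limma adjusted p = 0.0545 and 0.0742). Leaving out single animals ended the others with limma adjusted p of 0.0524 to 0.0891 for Hspa1a (all but conventional animal 8, untreated animal 1 and antibiotic animal 15), 0.0505 to 0.0904 for Fkbp5 (all but germ-free 1, conventional 6 and untreated 3), 0.0513 to 0.0698 for Ahsa1 (germ-free 4, conventional 7, untreated 2, untreated 3 or antibiotic 14), 0.0541 to 0.0652 for Fkbp4 (germ-free 3, conventional 7, untreated 2, antibiotic 13 or 15), 0.052 to 0.0618 for Cct2 (germ-free 3, conventional 7, untreated 2 or 3), 0.0535 to 0.0813 for Cct3 (germ-free 3, germ-free 4, conventional 7, untreated 2, antibiotic 14 or 15), 0.0541 to 0.0982 for Hspa9 (all but germ-free 1 and conventional 7), 0.0637 to 0.108 for Pfdn6 (all but germ-free 1, conventional 8, untreated 3 and antibiotic 13) and 0.0722 to 0.121 for Tcp1 (all but germ-free 1, conventional 6 and untreated 3). The differences ended by leaving out an animal were all lost with the actin ratio too. The limma adjusted p in that fit ran from 0.0503 for Fkbp4 to 0.188 for Tcp1. Some were also lost in other settings, that of Hspa1a with a robust prior (limma adjusted p = 0.116).

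Among the clock genes the differences were 2.96 for Nr1d1, 2.33 for Nr1d2, 1.55 for Dbp, 0.92 for Tef and -1.25 for Cry1. That of Dbp was lost with the actin ratio as a covariate (limma adjusted p = 0.0923). That of Tef was lost when any animal but germ-free 4, conventional 6 or untreated 1 was left out (limma adjusted p from 0.0526 to 0.0961). With all animals it was lost with the actin ratio (limma adjusted p = 0.152) and without the filter (0.0845). It also narrowly missed the threshold with quantile normalization, with median centring and without the intensity trend.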

How the results depend on the processing

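Over 24 alternatives (12 leaving out an animal, 12 others), 770 of 840 values for the heat shock probe sets kept their direction and their side of the threshold, 48 lost a call, 18 gained one and 4 changed sign. With antibiotics no heat shock probe set was called under any alternative. The count of heat shock probe sets called in germ-free livers was 6, 2 when only the 6 Sprague Dawley arrays were fitted, and 2 to 6 when an animal was left out, with 2 without germ-free animal 3 and 3 without conventional animal 6 or 7. The count for the difference was 7, 4 with the actin ratio as a covariate, and 6 to 10 when an animal was left out. The counts over all probe sets are of 15523 tested unless another number is given. In germ-free livers 1901 were called, 1226 of 9300 with 1 probe set per gene, 2547 with array weights, 875 with the actin ratio and 1006 to 2028 without an animal. With antibiotics 3 were called, 1 of 7761 with the stricter filter, 1 with the 6 Han Wistar arrays alone, 25 with array weights and 1 to 9 without an animal. For the difference 781 were called, 496 of 31042 without a filter, 1229 with array weights, 365 with the actin ratio and 435 to 850 without an animal. Signs turned for values that had not passed: Hspa4 in germ-free livers (-0.13 to 0.0033 when an animal was left out, positive without germ-free animal 4) and in the difference (-0.055 to 0.37, negative without untreated animal 3), Hspb1 with antibiotics (-0.15 to 0.32, negative without untreated animal 2 or antibiotic animal 13) and Hsf1 in germ-free livers (-0.039 with the actin ratio). Leaving out arrays leaves fewer samples; for the other settings the cause was not tested. No paired analysis was possible because the groups compared share no animal numbers. The deposited values hold no background or detection call, so how far the dim readings lie above background is unknown.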
